A study of Mus musculus with 12 samples.

Results

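The genes described here are the 7 unconventional myosins that carry cargo or tension along the actin of the hair bundle, Myo1c, Myo1h, Myo3a, Myo3b, Myo6, Myo7a and Myo10. They were taken by symbol from the 55348 genes counted in each library, as a list chosen with earlier results of these data known. All 7 were among the 19052 genes abundant enough to be tested. The libraries were poly-A RNA-seq of the mouse organ of Corti, the sensory strip of the cochlea, at postnatal day 21, with 3 libraries for each of 4 genotypes. Wild-type mice, from breedings separate from the mutants, served as controls and were not littermates. Clrn1-/- mice lacked clarin-1 in every cell, after deletion of an exon by PGK-cre. Clrn2-/- mice were homozygous for the clarinet nonsense allele, which removes clarin-2 from every cell. Clrn1-/-Clrn2-/- mice, obtained by crossing both lines, carried both alleles and are called double mutants below. The sources used here give no strain or sex for the libraries and do not say how many mice went into each, so the p-values measure only the spread between libraries.

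Unconventional myosins are actin-based motors that do not form the filaments of muscle. In hair cells they build and maintain the stereocilia, the actin-filled projections that detect sound, and they position the proteins of the tip link that pulls on the transduction channel. Loss of Myo6 or Myo7a causes deafness in mice and people, Myo7a being the Usher syndrome gene whose product works with harmonin and Sans at the upper end of the tip link. Myo6 is the motor that walks towards the pointed end of actin and is found at the base of stereocilia, in the cuticular plate and near the ribbon synapse. Myo1c has been studied as a motor of adaptation, Myo3a and Myo3b carry espins to stereocilia tips, and Myo10 is best known from the tips of filopodia.

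Total counts on genes ran from 30008679 to 41049302 per library. The targeted genes were examined first. Clrn1 read 23.8 to 28.6 CPM (reads counted on the gene, scaled to the size and composition of the library) in wild-type and 1.77 to 3.04 CPM across the 6 libraries without clarin-1. Clrn2 read 1.89 to 3.24 CPM in wild-type, 1.04 to 1.38 CPM in Clrn2-/- and 0.854 to 1.04 CPM in Clrn1-/- libraries, so its level did not separate the Clrn2-/- label from the Clrn1-/- label. The hair cell transcription factors Pou4f3 and Gfi1, the outer hair cell motor Slc26a5 and the inner hair cell transporter Slc17a8 were detected in every library. Myo1c and Myo10 are also made by many other cells, and in these bulk libraries fewer cells of a type and less RNA per cell cannot be told apart.

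In wild-type the 7 myosins covered a wide range of levels, compared here as CPM per kilobase of exon, given as mean ± SD of 3 libraries. Myo6 was the most abundant at 15.2 ± 0.336, ranking 3 among the 25 unconventional myosins listed in the files after Myo5a at 28.0 ± 0.713 and Myo18a, whose range it overlapped. Myo1c followed at 8.87 ± 0.415. Myo10 at 6.03 ± 0.389 and Myo7a at 5.53 ± 0.463 had overlapping ranges, so their order is not resolved. A gap of 8.47-fold separated Myo7a from Myo1h, at 0.653 ± 0.147. Myo3a at 0.240 ± 0.0445 and Myo3b at 0.111 ± 0.0736 were the lowest, the closest library values of that pair being 0.198 and 0.195.

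**Figure D1:**
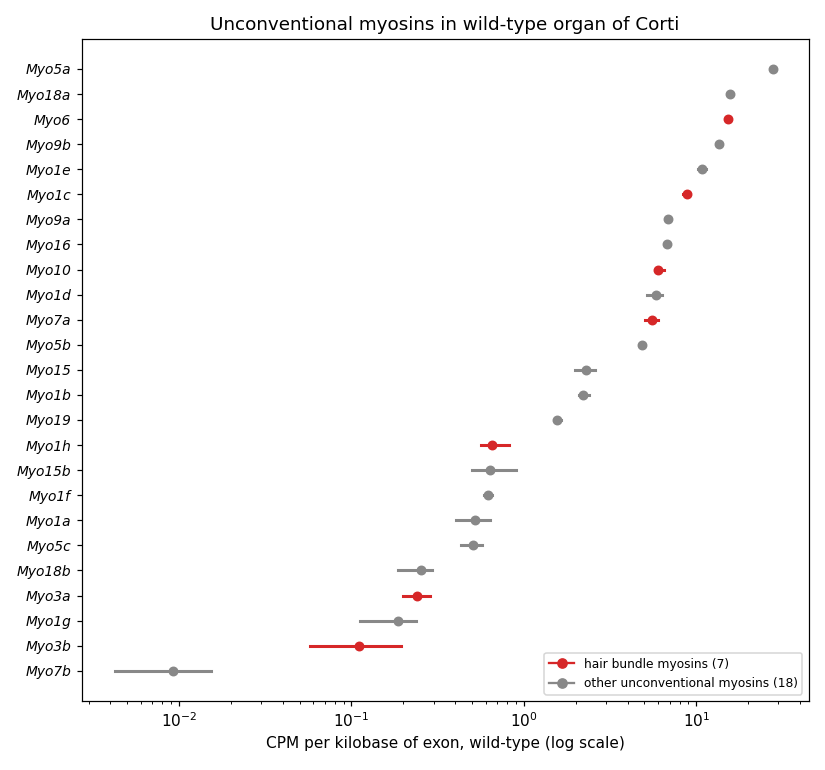
Wild-type level of the 25 unconventional myosins in CPM per kilobase of exon, on a log axis, with the mean as a point and the range of 3 libraries as a line. The 7 hair bundle myosins, in red, run from Myo6 at 15.2 to Myo3b at 0.111.

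The stretches around and upstream of the first listed start sites of Myo1h, Myo6 and Myo10 are shown because these 3 members were higher in the double mutant at an adjusted p of 0.05. They come from RefSeq on GRCm38.p6, all on the plus strand, and are written 5′ to 3′ with matches in capitals. The letters searched were CCAAT, known as the CCAAT box, and those of the GC box, spelled GGGCGG. Both strands were searched and overlapping matches counted. The gene bodies, from the Gencode annotation of the same build, are chr5:114289166-114365357 for Myo1h, chr9:80165031-80311729 for Myo6 and chr15:25622525-25813673 for Myo10.
Myo1h, chr5:114289003-114289165: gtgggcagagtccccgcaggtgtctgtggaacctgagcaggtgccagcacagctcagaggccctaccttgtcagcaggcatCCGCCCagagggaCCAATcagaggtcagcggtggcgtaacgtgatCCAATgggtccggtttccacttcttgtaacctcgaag
Myo6, chr9:80164784-80165033: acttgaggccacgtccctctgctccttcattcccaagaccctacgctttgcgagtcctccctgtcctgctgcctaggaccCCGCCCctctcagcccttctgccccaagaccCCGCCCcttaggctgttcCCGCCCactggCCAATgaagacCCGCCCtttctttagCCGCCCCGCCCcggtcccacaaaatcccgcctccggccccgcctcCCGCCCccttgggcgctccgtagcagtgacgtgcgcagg
Myo10, chr15:25622300-25622549: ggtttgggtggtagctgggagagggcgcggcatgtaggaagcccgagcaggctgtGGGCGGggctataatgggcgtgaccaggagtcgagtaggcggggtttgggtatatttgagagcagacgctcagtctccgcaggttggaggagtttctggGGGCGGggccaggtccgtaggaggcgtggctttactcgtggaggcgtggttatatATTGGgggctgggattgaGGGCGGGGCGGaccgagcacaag

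Each of these 3 stretches held both motifs. Myo6 carried 7 GC boxes and 1 CCAAT box, Myo10 carried 4 and 1, and Myo1h carried 1 and 2. Of 32851 mouse promoters of 250 bases, 33.8% held CCAAT and 32.7% held GGGCGG, so neither motif is rare. The 250 bases of Myo6 were 67.6% G or C and those of Myo10 62.8%, against a median of 52.4% for all promoters. The Myo1h stretch was cut to 163 bases because the last 87 of its 250 lie within the annotated gene, an overlap above the 30 bases allowed here. The last 3 bases of the Myo6 stretch and the last 25 of the Myo10 stretch also lie within the gene, and 2 of the 4 GC boxes of Myo10 are in those 25. TATAAA, held by 12.4% of promoters, was in none of these 3 stretches. RefSeq lists a second start site for Myo10, whose 250 bases held 1 TATAAA and neither other motif, and one for Myo1h with none of these motifs, and both are not shown. A match describes the letters only.

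Myo1h, a short class I myosin related to Myo1c, was the only member over-expressed in each of the 3 mutants at an adjusted p of 0.05 and a change of 1.5-fold. The 3 wild-type libraries read 3.34, 4.88 and 3.39 CPM and the Clrn1-/- libraries 5.66, 8.07 and 8.31 CPM. The Clrn2-/- libraries read 5.33, 6.12 and 7.45 CPM and the double mutants 6.13, 7.52 and 8.12 CPM. All 9 mutant libraries lay above all 3 wild-type libraries, whereas the mutants overlapped one another. Relative to wild-type the gene was 1.91-fold higher in Clrn1-/- (log2 0.93 ± 0.18, SE), with an edgeR adjusted p of 0.00120. It was 1.63-fold higher in Clrn2-/- (log2 0.70 ± 0.18, adjusted p = 0.0169) and 1.88-fold higher in the double mutant (log2 0.91 ± 0.18, adjusted p = 8.23e-04). The Clrn2-/- call was lost without wild-type replicate 1 (adjusted p = 0.0710) and without Clrn2-/- replicate 3 (adjusted p = 0.0865).

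Myo1h ends inside another gene, which bears on its counts. Its last exons share 1530 bases, 25.8% of its exon length, with Kctd10, a gene on the opposite strand that encodes a ubiquitin ligase adaptor. Between 84.9% and 93.1% of the stranded reads on Myo1h exons came from the opposite strand, against 0% to 3.33% for the other 6 members. The calls given above used the strand-specific counts. Counting without strand, which discards every read that touches exons of both genes, left 100, 131 and 97 reads in wild-type and 130, 249 and 242 in Clrn1-/- libraries. It left 154, 145 and 195 reads in Clrn2-/- and 144, 200 and 245 in double mutants. In those counts Myo1h passed both thresholds in each mutant, at log2 0.94, 0.67 and 0.95. Kctd10 itself read 67.4, 69.6 and 69.4 CPM in wild-type and did not pass the test in any mutant, its largest estimate being log2 0.11 in the double mutant (adjusted p = 0.114).

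**Figure D2:**
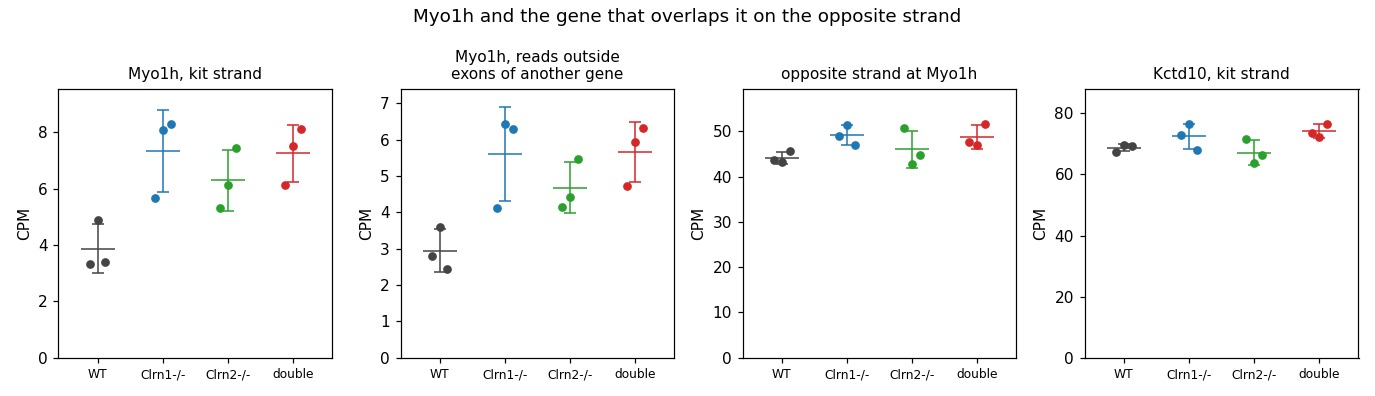
CPM of each library by genotype (points, with mean and SD) for Myo1h on the kit strand, for Myo1h reads outside exons of another gene, for the opposite strand at Myo1h and for Kctd10. Myo1h is higher in every mutant library than in wild-type in the first 2 panels, while Kctd10 stays between 63.7 and 76.6 CPM.

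Markers of macrophages were also higher in Clrn1-/- and the double mutant, while Clrn2-/- overlapped wild-type. Their 8 genes, none of them at 0 in any genotype, summed to 115 to 147 CPM in wild-type, 180 to 191 CPM in Clrn1-/-, 130 to 169 CPM in Clrn2-/- and 180 to 212 CPM in double mutants. Of the 8, 6 passed the adjusted p upwards in Clrn1-/-, 1 in Clrn2-/- and 7 in the double mutant. The 5 red blood cell genes summed to 700 to 1139 CPM in wild-type, 278 to 379 CPM in Clrn1-/-, 426 to 642 CPM in Clrn2-/- and 535 to 714 CPM in double mutants, the last overlapping wild-type. The 9 skeletal muscle genes summed to 19.6 to 22.9 CPM in wild-type, above every mutant library. In Clrn1-/-, Clrn2-/- and double mutants they summed to 10.1 to 10.3, 7.56 to 8.07 and 5.23 to 6.36 CPM. The 5 bone genes summed to 78.1 to 138 CPM in wild-type. In the mutants, in the same order, they summed to 159 to 191, 85.0 to 122 and 148 to 177 CPM. The part of these cells in the Myo1h values was not tested.

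Myo10, the filopodial motor, was higher in the double mutant than in every other genotype. Its libraries read 65.5, 59.4 and 58.2 CPM in wild-type, 69.2, 69.2 and 60.5 CPM in Clrn1-/-, and 69.5, 61.4 and 61.0 CPM in Clrn2-/-. The double mutants read 80.7, 81.1 and 80.5 CPM, above each of the other 9 libraries, whose genotypes overlapped. The double mutant was 1.32-fold above wild-type (log2 0.40 ± 0.06, adjusted p = 9.29e-05), under the 1.5-fold minimum. It was also above Clrn1-/- (log2 0.28 ± 0.06, adjusted p = 0.00239) and Clrn2-/- (log2 0.34 ± 0.06, adjusted p = 9.68e-04). Against wild-type the estimates were log2 0.12 in Clrn1-/- (adjusted p = 0.179, or 0.0405 without Clrn1-/- replicate 3) and log2 0.07 in Clrn2-/- (adjusted p = 0.525). The interaction term, which asks whether the double mutant departs from the sum of the single mutants, was log2 0.22 with an adjusted p of 0.111. It passed with the replicate number as a block (log2 0.22, adjusted p = 0.0484) and without Clrn2-/- replicate 1 (log2 0.28, adjusted p = 0.0382), and in no other of 19 alternative fits.

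Myo6, the most abundant member, was slightly higher in the double mutant and level in the single mutants. It read 181, 183 and 189 CPM in wild-type, 182, 181 and 183 CPM in Clrn1-/-, and 175, 179 and 197 CPM in Clrn2-/-. The double mutants read 208, 207 and 208 CPM, above every other library. The rise was 1.13-fold over wild-type (log2 0.17 ± 0.04, adjusted p = 0.00498), 1.06 to 1.20 in its 95% interval. It passed the adjusted p in all 20 alternative fits, at log2 0.15 to 0.22, but never the 1.5-fold minimum. Against wild-type the Clrn1-/- interval ran from log2 -0.11 to 0.07 and the Clrn2-/- interval from -0.09 to 0.09. The interaction was log2 0.19 ± 0.06 (adjusted p = 0.0421), a call that only 4 of 19 alternative fits kept, and every single library left out lost it except Clrn2-/- replicate 3.

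Myo7a, the Usher myosin, did not pass the test in any mutant against wild-type. Its libraries read 43.4, 47.4 and 51.3 CPM in wild-type, 49.7, 48.8 and 47.3 CPM in Clrn1-/-, 43.2, 41.8 and 49.1 CPM in Clrn2-/- and 51.1, 51.9 and 52.6 CPM in double mutants. The wild-type libraries ran from 43.4 to 51.3 CPM, within 41.8 to 52.6 CPM for all libraries, and overlapped each mutant. The 95% intervals of the change were log2 -0.10 to 0.17 in Clrn1-/-, -0.22 to 0.05 in Clrn2-/- and -0.01 to 0.27 in the double mutant, each short of 1.5-fold. Without wild-type replicate 3 the double mutant passed the adjusted p (log2 0.18, adjusted p = 0.0360), as it did when scaled by library size alone (log2 0.17, adjusted p = 0.0393). Between mutants, Myo7a was higher in the double mutant than in Clrn2-/- (log2 0.21 ± 0.06, adjusted p = 0.0210), a call that was lost without Clrn2-/- replicate 1 or 2 or double mutant replicate 2 or 3.

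Myo1c, the candidate adaptation motor, was lowest in Clrn2-/-. Its libraries read 60.8, 59.0 and 55.4 CPM in wild-type and 57.4, 57.3 and 53.1 CPM in Clrn1-/-. They read 53.6, 51.4 and 51.5 CPM in Clrn2-/- and 62.4, 61.0 and 61.5 CPM in double mutants. All Clrn2-/- libraries were below wild-type and all double mutants above it, though the closest double mutant and wild-type libraries nearly met. The change was log2 -0.16 ± 0.05 in Clrn2-/- (adjusted p = 0.0282), which 14 of 20 alternative fits kept and which leaving out wild-type replicate 1 or 2 or Clrn2-/- replicate 2 or 3 ended. In the double mutant it was log2 0.08 ± 0.05 (adjusted p = 0.208) and in Clrn1-/- log2 -0.06 ± 0.05 (adjusted p = 0.358). The double mutant was above Clrn2-/- (log2 0.24 ± 0.05, adjusted p = 0.00126) and above Clrn1-/- (log2 0.14 ± 0.05, adjusted p = 0.0314), the latter ended by leaving out any of 8 libraries. The interaction was log2 0.30 ± 0.07 (adjusted p = 0.00494), a double mutant level above the sum of the single mutants, and it held in all 19 alternative fits. The 8 fibroblast markers summed to 6613 to 7850 CPM in wild-type and 5344 to 5844 CPM in Clrn1-/-. They summed to 4942 to 5554 CPM in Clrn2-/- and 7269 to 8338 CPM in double mutants. The part of these cells in the Myo1c values was not tested.

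Myo3a and Myo3b, the class III motors that carry espins, were too low for small changes to be seen. Myo3a read 1.57, 1.86 and 2.28 CPM in wild-type, 1.83, 1.42 and 2.73 CPM in Clrn1-/-, 2.47, 1.90 and 2.89 CPM in Clrn2-/- and 2.66, 2.23 and 2.84 CPM in double mutants. Every mutant overlapped wild-type. The largest estimate was log2 0.43 in the double mutant, with a 95% interval of -0.05 to 0.91 and an adjusted p of 0.153. Myo3b rested on 16 to 50 reads per library, and wild-type held both the highest library, replicate 2 at 1.37 CPM, and the lowest, replicate 3 at 0.405 CPM. The mutant libraries lay between 0.492 and 0.955 CPM. Its intervals against wild-type reached from log2 -0.90 to 0.70, -0.69 to 0.88 and -0.88 to 0.73 in Clrn1-/-, Clrn2-/- and the double mutant. A 1.5-fold change in either direction is therefore not excluded at this depth and spread. Over the alternative fits the estimates ran from log2 -0.43 to 0.58, -0.23 to 0.78 and -0.41 to 0.60, in the same order.

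**Figure D3:**
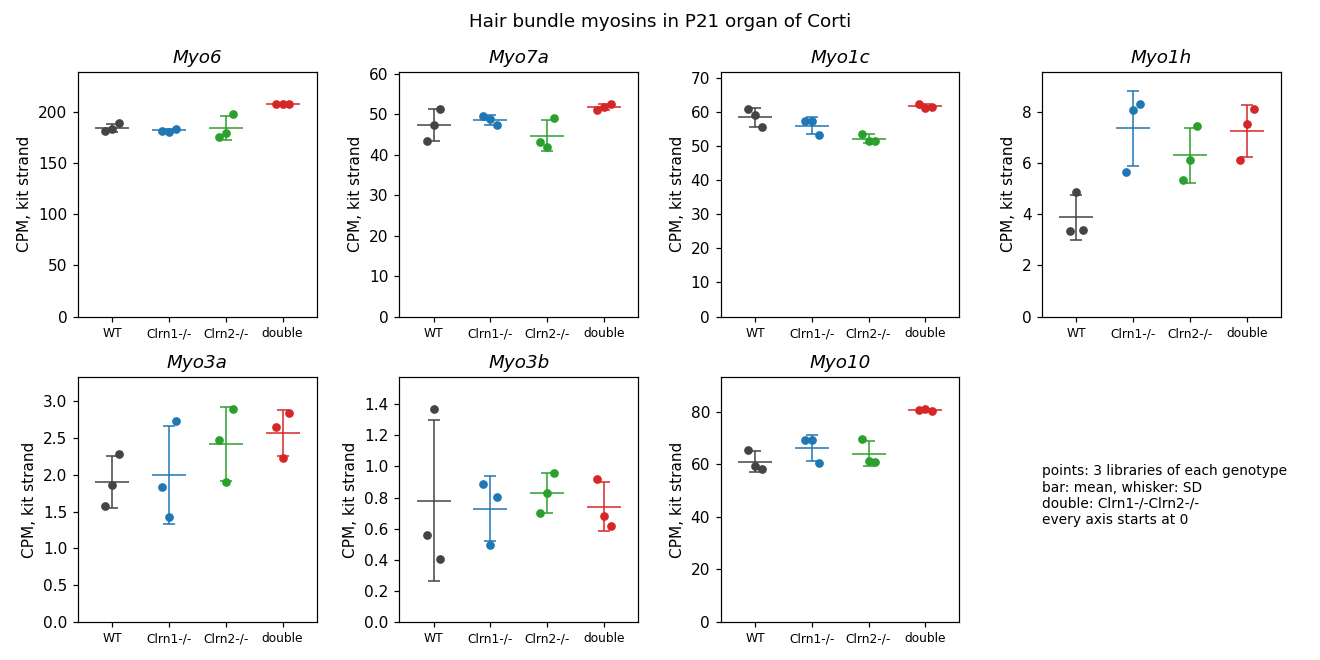
CPM of the 7 myosins in each of the 12 libraries by genotype, with the mean as a bar and the SD as a whisker. Myo1h is higher in all mutants, Myo6 and Myo10 are highest in the double mutant, and the genotypes overlap for Myo3a and Myo3b.

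Counted over the members, 1 of 7 passed both thresholds in each mutant against wild-type, always Myo1h. Of all genes tested, 7.22% did so in Clrn1-/- (3.52% upwards), 2.66% in Clrn2-/- (1.24% upwards) and 9.90% in the double mutant (5.88% upwards). By the adjusted p alone the members were 1 of 7, 2 of 7 and 3 of 7, against 26.9%, 14.2% and 37.0% of all genes. Upwards alone the shares of all genes were 13.6% in Clrn1-/- and 19.1% in the double mutant. With 7 members these counts are too close to the shares to set the members apart. The libraries of mutant and wild-type did not overlap for 1, 2 and 4 members, against 40.2%, 29.0% and 48.2% of all genes (20.5% in Clrn1-/- and 25.0% in the double mutant upwards). The median change of the 7 was log2 0.04, 0.07 and 0.17, beside medians of all genes within 0.01 of 0. These 3 comparisons share the wild-type libraries.

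**Figure D4:**
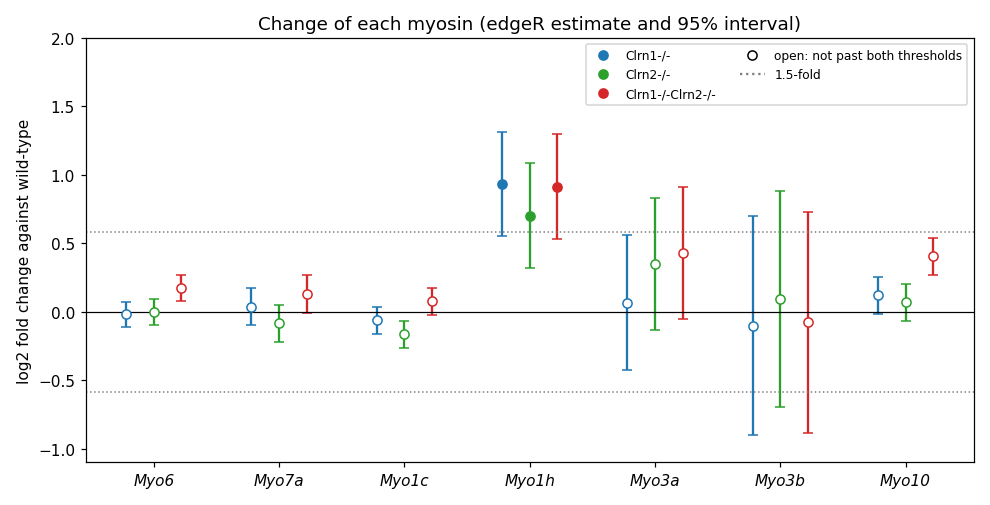
Log2 fold change of each myosin against wild-type with its 95% interval, for Clrn1-/- (blue), Clrn2-/- (green) and the double mutant (red), with filled points past both thresholds and dotted lines at 1.5-fold. Only Myo1h has filled points, between 0.70 and 0.93.

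Between mutants no member passed both thresholds. The background shares were 4.73% of all genes for Clrn1-/- against Clrn2-/-, 7.23% for the double mutant against Clrn1-/- and 5.10% against Clrn2-/-. By the adjusted p alone no member separated the single mutants, where 18.5% of all genes did, and none was without overlap, against 34.6%. The double mutant exceeded Clrn1-/- for Myo1c, Myo6 and Myo10, where 30.4% of all genes passed in either direction and 15.7% upwards. It exceeded Clrn2-/- for Myo1c, Myo6, Myo7a and Myo10, where 27.6% passed, 14.4% upwards. The same 4 members were without overlap between the double mutant and either single mutant, against 45.9% of all genes (23.6% upwards) for Clrn1-/- and 42.4% (21.6% upwards) for Clrn2-/-. For the interaction term no member passed both thresholds (5.50% of all genes did) and 2, Myo1c and Myo6, passed the adjusted p upwards (17.4%, and 9.32% upwards). Without wild-type replicate 2, Clrn1-/- replicate 1 or Clrn2-/- replicate 1, 1 member, Myo1h, passed both for the interaction, and without Clrn1-/- replicate 3 Myo3a did so for the double mutant against Clrn1-/-.

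Markers of several cell types also differed in the double mutant, where Myo6 and Myo10 were highest. The 15 hair cell markers, none at 0, summed to 2958 to 3404 CPM in wild-type, 2273 to 2439 CPM in Clrn1-/-, 2673 to 3255 CPM in Clrn2-/- and 1966 to 2170 CPM in double mutants. Calb2, which encodes calretinin and is also made by cochlear neurons, held 80.2% to 90.1% of that sum and fell in the double mutant by 0.73 on the log2 scale. Without it the other 14 markers summed to 297 to 342 CPM in wild-type, 319 to 377 CPM in Clrn1-/-, 355 to 446 CPM in Clrn2-/- and 388 to 414 CPM in double mutants. By gene, 9 of the 15 passed the adjusted p upwards and 4 downwards in the double mutant. The transcription factor Pou4f3 was at log2 0.32 and Slc26a5 at log2 0.55, both past the adjusted p, while Gfi1 fell by 0.69 on the log2 scale. The 12 supporting cell markers summed to 1719 to 1806 CPM in wild-type and 2116 to 2195 CPM in double mutants, and the 13 neuron markers to 12260 to 13463 and 8629 to 8787 CPM. The part of these shifts in the Myo6 and Myo10 values was not tested.

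Genes of proteins that unconventional myosins bind or carry were counted in the same way. The list includes Whrn and Eps8, described below with Myo15, which is not a member. Of 28 partners and cargoes, all tested, none was over-expressed and 2 under-expressed at both thresholds in Clrn1-/-, none and 2 in Clrn2-/-, and 5 and 1 in the double mutant. The shares of all genes in both directions were 7.22%, 2.66% and 9.90%, so the count in Clrn1-/- is at the background. The medians of the 28 were log2 -0.03, 0.04 and 0.12. The study had singled out several of these genes from the same libraries. Its qRT-PCR of the double mutant against wild-type found Pcdh15, Espnl and Ptprq significantly higher. Ush1c, Espn and Pdzd7 did not differ significantly in that assay. Radixin (Rdx), which anchors membrane to actin, was the most abundant partner per length in wild-type, at 32.6 ± 0.683 CPM per kilobase.

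Among the Myo7a partners, harmonin (Ush1c) read 37.2, 39.4 and 40.9 CPM in wild-type and 69.0, 68.0 and 67.3 CPM in double mutants, without overlap. It was higher by log2 0.80 ± 0.08 (adjusted p = 2.70e-06), whereas Sans (Ush1g) stood at log2 0.11 (adjusted p = 0.573). Of the tip link cadherins, Pcdh15 rose in the double mutant by log2 0.98 (adjusted p = 2.33e-07). Cdh23, the upper part of the link, instead fell in Clrn1-/- by 0.74 on the log2 scale (adjusted p = 4.16e-06) and was at log2 -0.52 in the double mutant, past the adjusted p but under 1.5-fold. The phosphatase Ptprq, a Myo6 cargo at the stereocilia base, read 14.9, 22.2 and 13.5 CPM in wild-type and 31.4, 35.3 and 31.4 CPM in double mutants, a rise of log2 0.96 (adjusted p = 7.37e-05).

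Of the cargoes of Myo3a and Myo3b, Espn and, less firmly, Espnl were called higher in the double mutant. The motors did not pass the test, but the Myo3a interval, log2 -0.05 to 0.91, holds both cargo estimates. A difference between cargo and motor was not tested. Espn, the actin bundler espin, was higher by log2 0.66 (adjusted p = 4.68e-05), a call that fell just under 1.5-fold without wild-type replicate 1 (log2 0.58). Espnl read 1.18, 3.64 and 1.14 CPM in wild-type and 3.84, 3.57 and 3.40 CPM in double mutants, which overlapped. Its estimate was log2 0.86 (adjusted p = 0.0443), lost in 12 of 20 alternative fits, among them all 3 that left out a double mutant library (adjusted p between 0.0541 and 0.180 over the 12). Without wild-type replicate 2, its highest wild-type library, Espnl was called in Clrn1-/- (log2 1.27) and Clrn2-/- (log2 0.85) as well. Morn4, a Myo3a-binding protein, was at log2 -0.25 in the double mutant (adjusted p = 0.00119), under 1.5-fold.

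The ankle link scaffold gene Pdzd7 read 16.3, 17.8 and 18.3 CPM in wild-type and 8.56, 9.81 and 9.46 CPM in double mutants. It fell by 0.91 on the log2 scale (adjusted p = 5.64e-07). Pdzd7 shares 206 exon bases with Lzts2 on the other strand, and counted without strand the change was log2 -0.55, under 1.5-fold. Whirlin (Whrn), the partner of Myo15, fell in Clrn2-/- by 0.66 on the log2 scale (adjusted p = 2.28e-04) but passed only the adjusted p without wild-type replicate 2, at log2 -0.52. Baiap2l2, a membrane-bending protein of the transducing stereocilia, fell by 0.87 in Clrn1-/- (adjusted p = 0.00136) and by 0.69 in Clrn2-/- (adjusted p = 0.0116), both on the log2 scale, the latter lost without Clrn2-/- replicate 2 and in a fit of only those 2 genotypes. In the double mutant it was at log2 -0.49, past both thresholds only without wild-type replicate 1 (log2 -0.59).

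**Figure D5:**
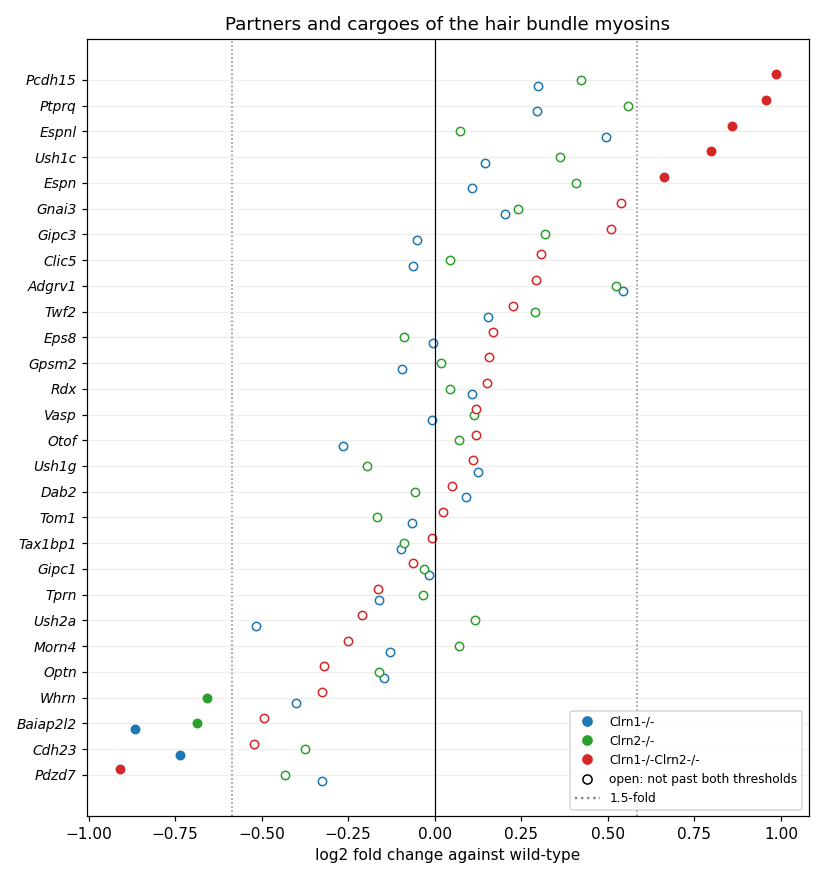
Log2 fold change against wild-type of the 28 partners and cargoes in the 3 mutants, ordered by the double mutant, with filled points past both thresholds and dotted lines at 1.5-fold. In the double mutant 5 lie beyond the upper line, from Espn at 0.66 to Pcdh15 at 0.98, and Pdzd7 lies beyond the lower one at -0.91.

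Of the other unconventional myosins, 18 were in the files and 17 were tested, Myo7b being too low. In Clrn1-/- 1 passed both thresholds upwards and 1 downwards, in Clrn2-/- none did, and in the double mutant 2 did, both upwards. The medians were log2 -0.08, -0.17 and -0.06. By the adjusted p alone 5, 6 and 7 of the 17 passed, against 26.9%, 14.2% and 37.0% of all genes, which puts the counts in Clrn1-/- and the double mutant near the background. Myo15, the motor that elongates stereocilia with whirlin and Eps8, read 25.3, 33.2 and 29.3 CPM in wild-type and 20.8, 22.4 and 21.8 CPM in Clrn1-/-, at log2 -0.43 (adjusted p = 0.0102), under 1.5-fold. Its other genotypes overlapped wild-type.

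Myo15b read 4.97, 8.85 and 4.93 CPM in wild-type and 2.12, 1.37 and 1.22 CPM in Clrn1-/-, a fall of 2.01 on the log2 scale (adjusted p = 3.78e-05). In the double mutant it read 4.75, 4.07 and 4.54 CPM, under each wild-type library but at log2 -0.49 (adjusted p = 0.109), which became log2 -0.65 (adjusted p = 0.0397) without wild-type replicate 3. Myo1f, a class I myosin of white blood cells including macrophages, rose by log2 0.62 in Clrn1-/- (adjusted p = 0.00908) and 0.64 in the double mutant (adjusted p = 0.00498). Its Clrn1-/- change dropped under 1.5-fold without wild-type replicate 2 or Clrn1-/- replicate 1 (log2 0.58 and 0.57), and that of the double mutant without double mutant replicate 1 (log2 0.47). Myo5c rose only in the double mutant among the 3 comparisons, by log2 0.69 (adjusted p = 2.72e-04), under 1.5-fold without wild-type replicate 3 (log2 0.57).

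Myo5a, the vesicle and melanosome motor that neurons make in quantity, was the most abundant of all 25 and declined most in the double mutant. It read 407, 411 and 427 CPM in wild-type, 391, 387 and 374 CPM in Clrn1-/-, 364, 341 and 307 CPM in Clrn2-/- and 276, 273 and 290 CPM in double mutants. All mutant libraries were below wild-type. The change was log2 -0.30 in Clrn2-/- (adjusted p = 0.00156) and -0.57 in the double mutant (adjusted p = 6.99e-07), the latter just under 1.5-fold and past it without wild-type replicate 1 (log2 -0.59) or double mutant replicate 3 (log2 -0.61). The neuron marker sums given above were lowest in the same libraries, and their part in the Myo5a values was not tested.

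Myosin light chains, which bind the necks of these motors, gave no call at both thresholds. Of 8 listed, 7 were tested, and the most abundant per length in wild-type was Calm2, at 735 ± 56.3 CPM per kilobase. By the adjusted p alone 3 passed in Clrn1-/-, 1 in Clrn2-/- and 4 in the double mutant, beside the same shares of all genes. The medians were log2 -0.07, 0.05 and 0.14, and the full range was -0.28 to 0.36 in the double mutant.

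Across the 12 libraries, which are 3 of each genotype and so are not independent points, the genes most like each member were listed among 15406 genes of at least 1 CPM on average, by Pearson's r of log2 CPM. For Myo6 these were Elf5, Mtf2 and Pls1, the last encoding the actin bundler plastin-1 of stereocilia, at r of 0.976, 0.972 and 0.961. For Myo10 they were Atf7ip, Pcdh1 and Sept9 (0.969, 0.964 and 0.963), and for Myo1c they were Tgfb1, Mapk3 and Tln1, the gene of talin (0.954, 0.950 and 0.946). For Myo1h they were Phgdh, the first enzyme of serine synthesis, Gdnf and Slc44a5 (0.951, 0.935 and 0.932). For Myo7a they were Gm10366, 4833420G17Rik and H3f3a-ps2 (0.943, 0.883 and 0.878), for Myo3a Fam241b, Pick1 and Ttc24 (0.937, 0.888 and 0.866), and for Myo3b Rrm2, Hemgn and Top2a (0.842, 0.827 and 0.823). Among the members themselves the closest pair was Myo6 and Myo7a (r = 0.76), then Myo1c and Myo10 (0.69), while Myo3b was near 0 with Myo6 (0.03).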

How the data were processed

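The deposited files hold read counts per gene that the authors made with STAR (version not given in the sources used here) on GRCm38.p6 with a Gencode annotation, 1 file per library and 3 count columns: without strand, and for each strand. The column of the strand that the directional kit reads, 95.2% to 95.6% of stranded counts, was used. Reads that were unmapped, mapped to several places, or fell on no gene or several, 13.5% to 15.8%, were left out. Genes were kept by filterByExpr (minimum count 10). Counts were scaled by TMM (factors 0.963 to 1.02), which also scales the CPM, and genotypes were compared in 1 fit of all 12 libraries with edgeR 4.0.16 (R 4.3.3), by the quasi-likelihood test with Benjamini-Hochberg adjustment over 19052 genes. Calls needed an adjusted p of at most 0.05 and 1.5-fold. The common coefficient of variation between replicates beyond counting noise, 1 value for all genes tested, was 6.15%. The code was tested on simulated data. Alternatives were limma-voom (limma 3.58.1), DESeq2 1.42.0, library size alone, other filters, unstranded counts, 2-genotype fits, a replicate block and each library left out. Replicates of a genotype differed by more than counting noise.

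Same-numbered libraries of wild-type and Clrn1-/- deviated together over 12453 genes (r of 0.105 to 0.269). In no other pair of genotypes did all 3 numbers exceed the limit of 0.1. The labels do not say that equal numbers belong together, so the main fit, also for Clrn1-/- against wild-type, did not pair libraries. The replicate block is the alternative that uses the numbers. Named genes were all 7 members, the members of each other list called against wild-type (up to 4 a direction and comparison), the most abundant of each list per length, the 3 genes most correlated with each member, and the label and hair cell checks. Espn, the smallest of the 5 partners called upwards in the double mutant, was named beyond that limit of 4. Morn4, Ush1g, Myo15, Myo18b, Calb2, Adgrv1 and Kctd10 were named after their values were seen. The members and lists were chosen with earlier results of these data known.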

Additional observations from a re-analysis of the deposited data

Results flagged for a closer look

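Several results differed between genotype backgrounds: the effect of losing clarin-1 depended on whether clarin-2 was present, by the interaction term of the edgeR fit at an adjusted p of 0.05. Among the 7 members these were Myo1c (log2 0.30) and Myo6 (log2 0.19). Among the other myosins and partners called against wild-type they were Myo15b (log2 1.95), Cdh23 (log2 0.59), Whrn (log2 0.73) and Baiap2l2 (log2 1.06). For these 6 the double mutant stood above the level that the single mutants add up to. The targeted gene Clrn2 also passed upwards (log2 1.38, adjusted p = 0.00752). Of the 15 hair cell markers, 1 passed the adjusted p upwards and 1 downwards. The other direction was also seen. Adgrv1, the ankle link receptor, chosen after its values were seen, was at log2 -0.78 (adjusted p = 0.00993), and Myo1h was at log2 -0.72 (adjusted p = 0.0576), past both thresholds in 8 of 19 alternative fits.

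Reads on the strand opposite to Myo1h, which enter no test of Myo1h, were higher in every Clrn1-/- library than in every wild-type library, at a mean of 49.1 CPM, and likewise in the double mutant, at 48.7 CPM, against 44.2 ± 1.34 CPM in wild-type. Clrn2-/- libraries overlapped wild-type. Kctd10 lies on that strand and shares exon bases with Myo1h, and its own counts, which include reads of the shared bases, did not pass the test in any mutant (log2 0.07, -0.03 and 0.11).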

How the results depend on the processing

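Of 973 alternative values of a member's log2 fold change, 873 kept their direction and side of the adjusted p, 36 lost it, 14 gained it, and 50 changed sign without passing it in either fit, 45 of them in Myo3a, Myo3b or Myo6. Without a fold minimum, members called numbered 2 in Clrn2-/- and 3 in the double mutant against wild-type, 3 and 4 in the double mutant against Clrn1-/- and Clrn2-/-, and 2 for the interaction. Partners then numbered 9, 12 and 16, other myosins 5, 6 and 7, and light chains 3, 1 and 4 in Clrn1-/-, Clrn2-/- and the double mutant. For the interaction, 1 member (Myo1h) was called under DESeq2, library size alone, no filter, the FPKM filter and the replicate block. Leaving out 1 library gave 0 to 1 members for the interaction, for Clrn2-/- against wild-type and for the double mutant against Clrn1-/-, 1 to 2 other myosins in Clrn1-/- and 1 to 3 in the double mutant, and 2 to 3, 2 to 3 and 5 to 6 partners in Clrn1-/-, Clrn2-/- and the double mutant. In Clrn2-/-, 1 other myosin (Myo18b) was called with no filter or with the replicate block, and 1 partner with the 2-genotype fit. The replicate block, used as the same numbers recur in all genotypes, left Myo1h called in Clrn1-/- (log2 0.92), Clrn2-/- (log2 0.71) and the double mutant (log2 0.91). It changed no member call against wild-type, and in the interaction it brought Myo1h (log2 -0.72) and Myo10 (log2 0.22) past the adjusted p. The causes were not tested. Depth limits Myo3b most, at 16 to 50 reads a library.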

Other observations

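Reads in exons of Kctd10 on the strand opposite to it, on which Myo1h lies, had a mean of 1.12 ± 0.541 CPM in wild-type, 2.26 ± 0.429 CPM in Clrn1-/-, 2.03 ± 0.562 CPM in Clrn2-/- and 2.11 ± 0.157 CPM in double mutants (SD, 3 libraries each).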
